A study of Homo sapiens with 8 samples.

Results

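The genes described are 9 targets of the transcription factor NRF2: GCLC, GCLM, TXNRD1, SRXN1, NQO1, OSGIN1, HMOX1, FTH1 and FTL. They were chosen by gene symbol, and all 9 were found among the 58440 genes of the count table. Of these 9, 8 passed the filter on low counts, which left 16390 genes to test, and OSGIN1 did not pass it. The series profiled polyA RNA of HEK293 cells, a human embryonic kidney line, by stranded sequencing. By their labels, the 8 samples were 4 groups of 2: HTR1E-stable cells with serotonin, control cells with serotonin, HTR1E-stable cells with no ligand and control cells with no ligand. HTR1E is a serotonin receptor that couples to inhibitory G proteins, and whether the overexpressing line was a clone or a pool, and what the control cells carried, is not given in the labels. All 8 samples were starved of serum for 3 hours, and the treated ones then had 1 µM serotonin (5-HT) for 1 hour.

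The names of the 8 count columns give the treatment but not the cell line, so the columns were compared by treatment, 4 serotonin columns against 4 no ligand columns. After the treatment each name has the letter A or B, with or without a further R, and no label says what these mark. Columns are called here by treatment word, letter and a number, 1 for a name without the R and 2 for a name with it, and the number only names a column. Counts were not used to place a column in a cell line, and so no test of HTR1E-stable against control cells was made. HTR1E had 1783 counts in Serotonin A1, 1353 in Serotonin A2, 1643 in Control A1 and 1836 in Control A2. It had 2 counts in Serotonin B1, 3 in Serotonin B2, and 0 in Control B1 and in Control B2. The first letter was kept as a block in the treatment test, and responses within each letter are given beside the pooled ones.

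NRF2, encoded by NFE2L2, is held in the cytoplasm and sent for degradation by KEAP1, an adaptor of a CUL3 ubiquitin ligase. Oxidants and electrophiles modify KEAP1, and NRF2 then builds up, pairs with small MAF proteins and binds antioxidant response elements near genes for glutathione synthesis, thiol repair, quinone detoxification, haem breakdown and iron storage. BACH1 competes for some of the same elements, HMOX1 being its best known target.

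No tested member passed the threshold for serotonin against no ligand, and neither did any other gene. With edgeR's quasi-likelihood test and Benjamini-Hochberg adjustment, 0 of 16390 genes, or 0%, had an adjusted p under 0.05. An unadjusted p under 0.05 was reached by 605, or 3.69%. DESeq2 also called 0 genes, with 950 at an unadjusted p under 0.05. GCLM was the only member whose serotonin columns all lay below its no ligand columns, and no member had all of them above. Over all tested genes, 1.15% showed the first pattern and 1.00% the second. Of the 8 tested members, 6 had a negative log2 fold change and 2 a positive one, with a median of -0.19. Over all tested genes the median was 0.00 and 50.3% were negative. An alternative chosen after seeing the data left out Control B1 and Serotonin B2, the 2 libraries with the highest mitochondrial share. In it 0 genes were called and 7 of the 8 members were negative, FTL having gone from 0.01 to -0.17. The share of negative values over all genes was not taken in that fit, so the 7 has no background beside it.

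The libraries differed in quality within the treatments. Total counts ran from 5439082 to 7839885 in the serotonin columns and from 2604885 to 9072278 in the no ligand columns, where Control B1 was the shallowest. Mitochondrial genes took 54.4% of the counts in Control B1 and 36.3% in Serotonin B2, against 17.9% to 24.6% in the other 6 columns. In Control B1 43.9% of all counts were mitochondrial rRNA. No pair of columns of the same treatment agreed within sampling noise: the mean chi-square per gene was 4.20 or more. The labels do not say that replicates came from separate cultures, so p-values measure the spread between these samples, which may be technical. HEK293 markers VIM (300.1 to 456 CPM, read counts scaled to the library total with TMM factors), KRT8, KRT18, PAX2, NEFL and NEFM had counts in every column, and the blood marker PTPRC was at 0 in all 8. COL1A1, taken as a fibroblast marker, had 12.2 to 44.0 CPM. The liver marker ALB also had counts in every column, at 0.219 to 1.75 CPM. The endothelial markers PECAM1 and CDH5 had at most 3 and 1 counts in a column. In Control B1 ALB had 3 counts and the HEK293 marker NEFM 1, so a count in every column does not separate the marker lists.

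**Figure D1:**
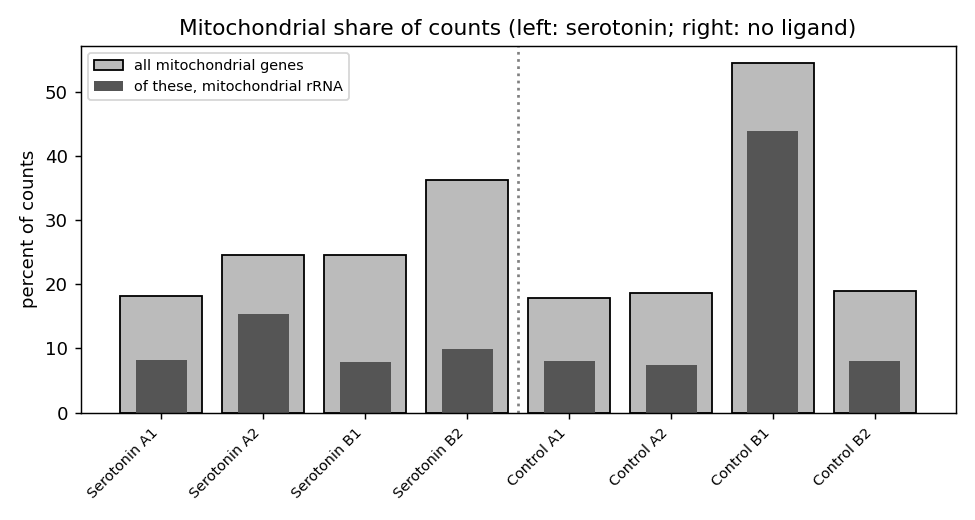
Percent of counts in each of the 8 columns that fell on mitochondrial genes (wide bars) and on mitochondrial rRNA (narrow bars), serotonin left and no ligand right. Control B1 stands at 54.4% and Serotonin B2 at 36.3%, and the other columns lie between 17.9% and 24.6%.

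The consensus core of the antioxidant response element is shown in the promoters that hold it, because GCLM was the member that separated the treatments and TXNRD1 is the other member with a match. The core searched was TGACNNNGC on both strands, with no other motif, in RefSeq promoter windows of 300 bases (250 before to 50 after the start, GRCh38.p14). Such windows were at hand for 7 of the 9 members. A match was present for 2 of them, GCLM and TXNRD1, and in 13.3% of all 35116 windows. The match is in capitals, and the sequences read 5′ to 3′ along the gene:
GCLM, chr1:93909431-93909489, minus strand: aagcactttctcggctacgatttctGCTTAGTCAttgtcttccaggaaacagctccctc
TXNRD1 upstream start, chr12:104215655-104215713, plus strand: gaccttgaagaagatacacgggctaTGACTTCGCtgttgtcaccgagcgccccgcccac
TXNRD1 downstream start, chr12:104286905-104286963, plus strand: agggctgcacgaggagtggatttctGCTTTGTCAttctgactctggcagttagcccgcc
The GCLM match lies on the opposite strand, 34 to 26 bases before the start. The TXNRD1 matches shown lie 99 to 91 bases before the upstream start, on the same strand, and 102 to 94 bases before the downstream start, on the opposite strand. A further match overlaps the upstream start itself. For GCLC, SRXN1, NQO1, OSGIN1 and FTL these letters were not in the windows searched, and the window says nothing about elements farther away.

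The members spanned a wide range of levels. Per kilobase of summed exon length, the median over all 8 columns was 284 CPM per kb for FTL and 112 for FTH1, the light and heavy chains of ferritin, which stores iron. TXNRD1 had a median of 13.6 CPM per kb, HMOX1 5.61, GCLC 4.21, GCLM 3.25, SRXN1 0.783, NQO1 0.616 and OSGIN1 0.192. The ranges of FTL (182 to 399 CPM per kb), FTH1 (63.2 to 143) and TXNRD1 (7.96 to 19.3) did not overlap. HMOX1 (4.80 to 6.98) overlapped GCLC (3.62 to 4.91), and GCLC overlapped GCLM (2.38 to 4.57). SRXN1, NQO1 and OSGIN1 overlapped each other at the low end. Control B2 was the highest column for 6 of the 9 members, and how often it was the highest over all genes was not counted.

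**Figure D2:**
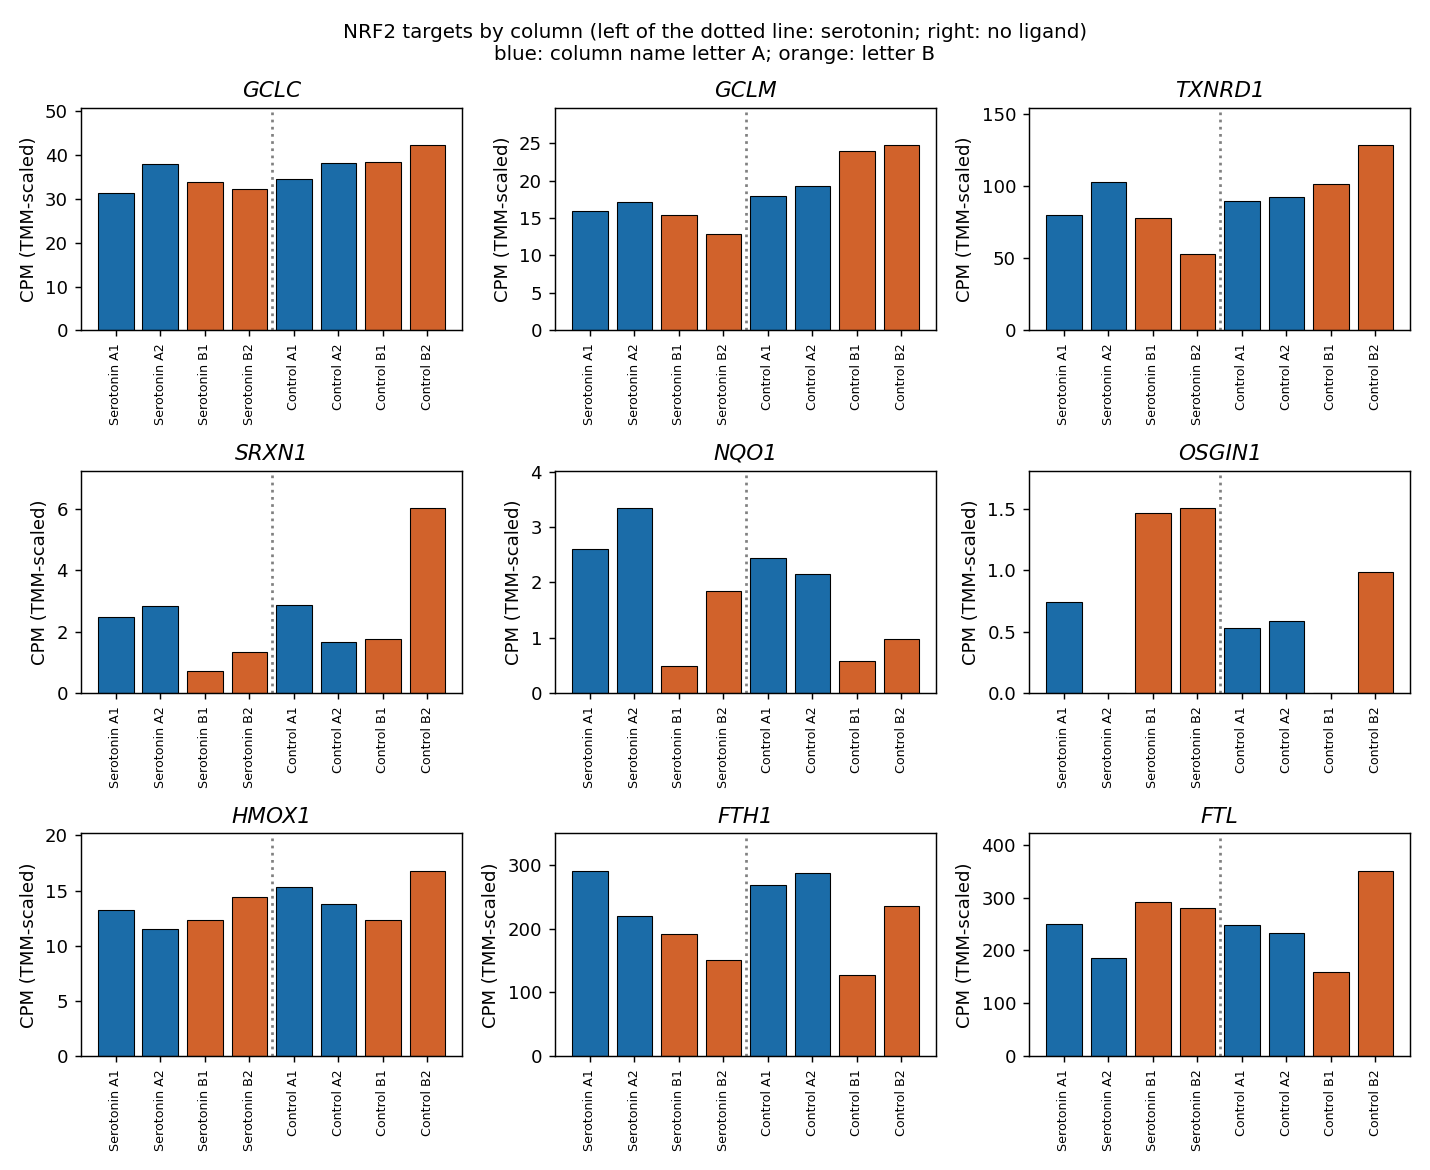
CPM after TMM scaling (vertical axes, from 0) of the 9 members in each column, serotonin left of the dotted line and no ligand right, blue for name letter A and orange for B. GCLM bars are 12.9 to 17.2 CPM with serotonin and 18.0 to 24.8 CPM without ligand, and the bars of every other member overlap between treatments.

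GCLM and GCLC are the modifier and catalytic subunits of glutamate-cysteine ligase, the rate-limiting enzyme of glutathione synthesis. GCLM (ENSG00000023909.9, hg38 chromosome 1, 93885205 to 93909456, minus strand) had 15.9 CPM in Serotonin A1, 17.2 in Serotonin A2, 15.4 in Serotonin B1 and 12.9 in Serotonin B2. It had 18.0 CPM in Control A1, 19.3 in Control A2, 23.9 in Control B1 and 24.8 in Control B2. The treatments did not overlap, and the distance was wider between the B columns than between the A columns. The mean was 15.4 ± 1.81 CPM with serotonin and 21.5 ± 3.36 CPM without ligand (SD, 4 columns each). The fitted log2 fold change was -0.47 (SE 0.20, 95% interval -0.92 to -0.02), with an edgeR adjusted p of 0.73 and an unadjusted p of 0.043. Of all tested genes, 3.69% had an edgeR unadjusted p under 0.05 in this comparison. The mitochondrial share was high in the lowest serotonin column, Serotonin B2, and in Control B1, the second highest of the no ligand columns. Without these 2 columns the log2 fold change was -0.33, with an adjusted p of 1.

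GCLC (ENSG00000001084.11, chromosome 6, 53497341 to 53616970, minus strand) had 31.3 CPM in Serotonin A1, 38.1 in Serotonin A2, 33.8 in Serotonin B1 and 32.2 in Serotonin B2. It had 34.6 CPM in Control A1, 38.3 in Control A2, 38.5 in Control B1 and 42.4 in Control B2. Only Serotonin A2 reached the no ligand range, so the treatments overlapped through that column. Its log2 fold change was -0.18 (SE 0.18, interval -0.57 to 0.21), with an edgeR adjusted p of 0.75. The interval covers levels from 0.673 to 1.15 times the no ligand level.

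TXNRD1 and SRXN1 repair oxidised thiols. TXNRD1 is the cytosolic thioredoxin reductase, which uses NADPH to recycle thioredoxin. TXNRD1 (ENSG00000198431.15, chromosome 12, 104215779 to 104350305, plus strand) had 80.0 CPM in Serotonin A1, 103 in Serotonin A2, 78.2 in Serotonin B1 and 53.4 in Serotonin B2. It had 89.8 CPM in Control A1, 93.0 in Control A2, 102 in Control B1 and 129 in Control B2. The lowest value was that of Serotonin B2 and the highest that of Control B2, and Serotonin A2 lay within the no ligand range. The log2 fold change was -0.41 (SE 0.25, interval -0.95 to 0.14), with an edgeR adjusted p of 0.73. It was -0.22 without Serotonin B2 and -0.25 without Control B2.

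SRXN1, sulfiredoxin, restores peroxiredoxins that have been overoxidised. SRXN1 (ENSG00000271303.1, chromosome 20, 646615 to 653370, minus strand) had only 20, 17, 6 and 8 counts in Serotonin A1, Serotonin A2, Serotonin B1 and Serotonin B2. It had 27 counts in Control A1, 17 in Control A2, 3 in Control B1 and 55 in Control B2. As CPM this was 0.733 to 2.84 with serotonin and 1.67 to 6.03 without ligand, so the treatments overlapped and Control B2 stood above the other 7 columns. The log2 fold change of -0.84 (SE 0.57, edgeR adjusted p 0.73) rested on that column and was -0.01 without Control B2. It was -0.42 without Serotonin B1.

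NQO1 and OSGIN1 were near the detection limit. NQO1 reduces quinones by a single hydride transfer, with NADH or NADPH as donor. NQO1 (ENSG00000181019.12, chromosome 16, 69706996 to 69726951, minus strand) had 2.60 CPM in Serotonin A1, 3.35 in Serotonin A2, 0.489 in Serotonin B1 and 1.85 in Serotonin B2. It had 2.45 CPM in Control A1, 2.16 in Control A2, 0.583 in Control B1 and 0.987 in Control B2, on counts of 1 to 23 per column over both treatments. The treatments overlapped, with a log2 fold change of 0.35 (SE 0.46, interval -0.67 to 1.38) and an edgeR adjusted p of 0.81. It was 0.06 without Serotonin B2 and 0.61 without Serotonin B1. At this depth an increase to 2.60 times the no ligand level would lie within the interval.

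OSGIN1, an oxidative stress induced growth inhibitor (ENSG00000140961.12, chromosome 16, 83948282 to 83966332, plus strand), had 6 counts in Serotonin A1, 0 in Serotonin A2, 12 in Serotonin B1 and 9 in Serotonin B2. It had 5 counts in Control A1, 6 in Control A2, 0 in Control B1 and 9 in Control B2. Both treatments held a column with no count, and no difference was detectable. With no filter on low counts its log2 fold change was 0.33 (SE 0.69) and its edgeR adjusted p 0.93.

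HMOX1, haem oxygenase 1, opens the haem ring and releases iron, and ferritin then takes up free iron. HMOX1 (ENSG00000100292.16, chromosome 22, 35380361 to 35394214, plus strand) had 13.2 CPM in Serotonin A1, 11.5 in Serotonin A2, 12.3 in Serotonin B1 and 14.4 in Serotonin B2. It had 15.3 CPM in Control A1, 13.8 in Control A2, 12.3 in Control B1 and 16.8 in Control B2. HMOX1 varied little, its highest column being 1.45 times its lowest, and the treatments overlapped. The log2 fold change was -0.19 (SE 0.20, interval -0.64 to 0.25), with an edgeR adjusted p of 0.76. For the pooled response, an increase above 1.19 times the no ligand level lies outside the interval. The intervals within letters were wider, reaching 1.31 times in the A columns and 1.40 times in the B columns.

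FTH1 (ENSG00000167996.15, chromosome 11, 61959718 to 61967660, minus strand) had 291, 220, 192 and 151 CPM in Serotonin A1, Serotonin A2, Serotonin B1 and Serotonin B2. It had 269 CPM in Control A1, 287 in Control A2, 128 in Control B1 and 236 in Control B2. The 2 lowest columns, Control B1 and Serotonin B2, were the 2 with the highest mitochondrial share, whose part in these values was not tested. For FTH1 the log2 fold change was -0.11 (SE 0.24, interval -0.65 to 0.43) with an edgeR adjusted p of 0.89. It was positive, at 0.09, without Control B2.

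FTL (ENSG00000087086.14, chromosome 19, 48965301 to 48966878, plus strand) had 249.6, 186, 291 and 281 CPM in the serotonin columns, in the same order. It had 249 CPM in Control A1, 233 in Control A2, 159.8 in Control B1 and 351 in Control B2. Both extremes were no ligand columns, so the serotonin range lay inside the no ligand range. For FTL the log2 fold change was 0.01 (SE 0.27, interval -0.59 to 0.60) with an edgeR adjusted p of 1. It was -0.17 without Control B1 and Serotonin B2. The ferritin genes have many near-identical processed copies, 25 named for FTH1 and 16 for FTL in the table. Counts on these copies came to 2.37% to 10.9% of the FTH1 count and 0.418% to 2.19% of the FTL count, and reads that could not be placed may be missing from both genes.

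**Figure D3:**
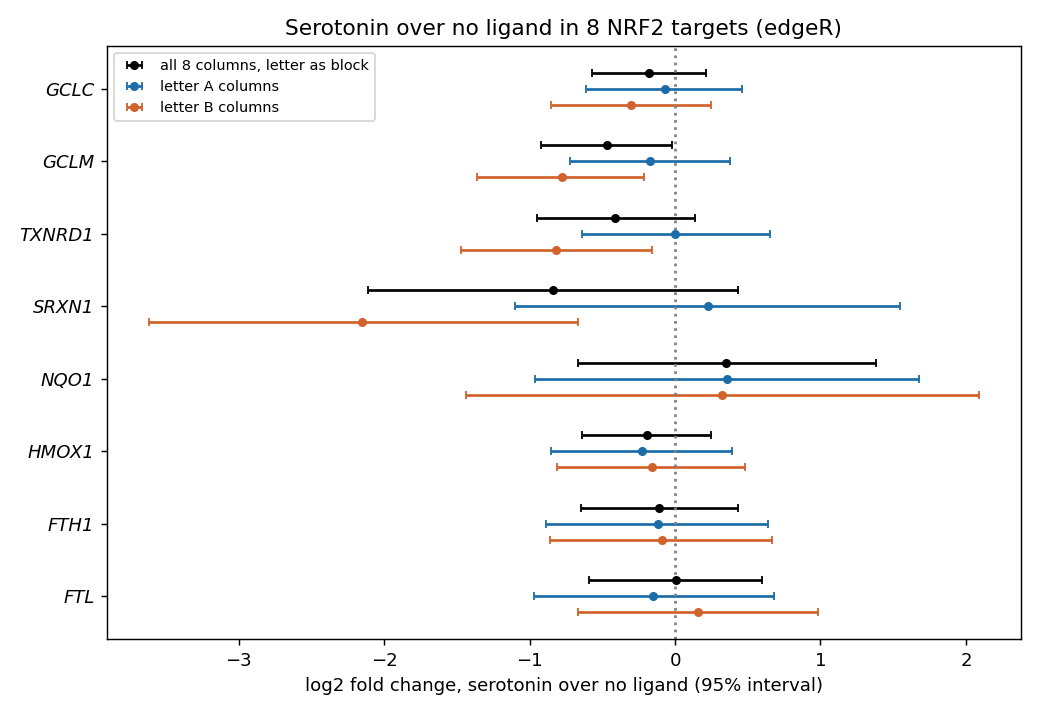
Log2 fold change of serotonin over no ligand (horizontal axis) with its 95% interval for the 8 tested members, from all 8 columns (black), letter A columns (blue) and letter B columns (orange). In black only the GCLM interval, -0.92 to -0.02, stays below 0; in orange those of GCLM, TXNRD1 and SRXN1 do, and no adjusted p is under 0.05.

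Within the A columns, where HTR1E had 175 to 226 CPM, the 95% interval of every tested member included 0. Here 0% of the genes passed edgeR's adjusted p under 0.05, 49 of 16390 had an unadjusted p under 0.05, and DESeq2 called 0 genes. GCLM had a log2 fold change of -0.17 (SE 0.25), TXNRD1 0.00 (SE 0.29), GCLC -0.07 (SE 0.24) and HMOX1 -0.23 (SE 0.28). All edgeR adjusted p-values of the members were 1. Of the 8 tested members, GCLM and HMOX1 had both serotonin columns below both no ligand columns, as did 14.4% of all tested genes. NQO1 had both above, as did 12.1%.

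Within the B columns, where HTR1E had 0 to 3 counts, 4 of the 8 tested members, GCLM, GCLC, TXNRD1 and SRXN1, had both serotonin columns below both no ligand columns, and none had both above. Over all tested genes 26.2% showed the first pattern and 28.5% the second. The log2 fold change was -0.78 (SE 0.26) for GCLM, -0.82 (SE 0.30) for TXNRD1, -2.15 (SE 0.67) for SRXN1 and -0.30 (SE 0.25) for GCLC. None passed the threshold: the edgeR adjusted p was 0.10 for GCLM, 0.12 for TXNRD1, 0.093 for SRXN1 and 0.45 for GCLC. The SRXN1 log2 fold change was -0.78 without Control B2. GCLM, TXNRD1 and SRXN1 had an unadjusted p under 0.05, as did 27.3% of all tested genes in this comparison, which holds both columns of high mitochondrial share. edgeR called 2 genes here, or 0.0122%, the immediate early nuclear receptor genes NR4A1 and NR4A2, and neither is a member. NR4A1 rose by 2.60 on the log2 scale (SE 0.28, adjusted p 0.023) and NR4A2 by 2.71 (SE 0.31, adjusted p 0.023). DESeq2 called 1615 genes in the same comparison, 1070 higher and 545 lower, and none of the 7 members to which it gave an adjusted p. As single columns were left out, edgeR called 0 genes without Serotonin B2 or without any 1 of the 4 A columns, 4 without Control B1, 1067 without Serotonin B1 and 4807 without Control B2. Without Control B2 the only no ligand column left among the B columns was Control B1, with its 54.4% mitochondrial share, and the part of either column in these counts was not tested. Some cell type markers also differed between the B columns. COL1A1 had 27.1 and 44.0 CPM with serotonin and 12.3 and 12.2 CPM without ligand, a log2 fold change of 1.54 (SE 0.30, edgeR adjusted p 0.065). PAX2 had 1.65 (SE 0.57, edgeR adjusted p 0.11) and KRT18 1.00 (SE 0.40, adjusted p 0.14), and PTPRC was at 0 in all columns. PAX2 had 5.98 CPM in Serotonin B1 and 21.6 in Serotonin B2, and KRT18 had 35 CPM in Control B1 and 80.5 in Control B2. The log2 fold changes of the other HEK293 markers were 0.64 for KRT8 (SE 0.38) and 0.74 for NEFM (SE 0.68). They were -0.09 for VIM (SE 0.30) and -0.44 for NEFL (SE 0.32). The part of these markers in the member values was not tested.

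The difference between these responses was tested directly, as B minus A. edgeR called 0% of the genes, with 2495, or 15.2%, at an unadjusted p under 0.05, and DESeq2 called 76. The largest member difference was that of SRXN1, -2.37 (SE 0.90) with an edgeR adjusted p of 0.30, and it was -1.0 without Control B2. TXNRD1 differed by -0.82 (SE 0.42, adjusted p 0.35) and GCLM by -0.61 (SE 0.36, adjusted p 0.41). The intervals of TXNRD1 and GCLM include 0, and that of GCLM ran from -1.41 to 0.18. That of SRXN1, on 3 to 55 counts per column, ran from -4.36 to -0.38 and leaves out 0 (edgeR unadjusted p 0.024).

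Other genes of the pathway were taken from 4 lists: 10 regulators, 16 genes of the glutathione and thioredoxin system, 6 of NADPH supply and 15 of detoxification, haem and iron handling. Of these 47 genes 42 were tested, and none passed edgeR's threshold in either direction for serotonin against no ligand. The 42 split evenly, 21 lower and 21 higher, with a median log2 fold change of -0.01. One of them, CUL3, had all serotonin columns (45.2 to 62.5 CPM) below all no ligand columns (62.9 to 78.4 CPM), a pattern that 1.15% of all tested genes showed. Its log2 fold change was -0.37 (SE 0.19), with an edgeR adjusted p of 0.73.

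Among the regulators, NFE2L2 had 17.1 to 27.6 CPM with serotonin and 22.7 to 32.7 CPM without ligand, a log2 fold change of -0.24 (SE 0.21, edgeR adjusted p 0.73). KEAP1 had 39.7 to 55.3 CPM with serotonin and 16.9 to 54.2 CPM without ligand, the lowest value being that of Control B1. The smallest p-values of the 4 lists belonged to FECH, ferrochelatase, which inserts iron into protoporphyrin to make haem; ME1, a cytosolic malic enzyme that makes NADPH; and TFRC, the transferrin receptor. Their log2 fold changes were -0.59 (SE 0.22) for FECH, -0.37 (SE 0.18) for ME1 and -0.51 (SE 0.25) for TFRC, each with an edgeR adjusted p of 0.73. FECH had 15.4 to 27.1 CPM with serotonin and 25.6 to 35.4 CPM without ligand, an overlap made by Serotonin A2 and Control A1. Within the A columns the smallest p-values of the lists were those of CUL3, ME1 and ABCC2, a conjugate exporter, each with an edgeR adjusted p of 1. Within the B columns they were those of TFRC (log2 fold change -1.04, adjusted p 0.072), FECH (-0.98, 0.077) and the exporter ABCC4 (-1.23, 0.079). For the difference between the letters they were those of ABCC4, TFRC and MGST1, a microsomal glutathione transferase, with edgeR adjusted p-values of 0.29 to 0.33.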

How the data were processed

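The authors deposited 1 table of raw counts, with 8 columns of fragments assigned to each gene. Per the file headers they were made with featureCounts 2.0.1, reverse-stranded, on GENCODE release 28 and duplicate-marked alignments. The submitters' processing notes also name STAR 2.7.8a, cutadapt 3.4 and hg38. The deposited gene lengths in the same table, an annotation value, were used only for levels per kb. All 8 columns were used. A column's treatment came from the word Control or Serotonin in its name, since 4 samples carry each word as treatment label and 4 columns have each. The proposed placement of columns in a cell line by HTR1E counts was not used.

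Symbols matched 57799 of 58440 gene IDs. Genes were filtered with filterByExpr (minimum count 10), scaled by TMM and tested with edgeR 4.0.16 in R 4.3.3 by the quasi-likelihood test over all 16390 genes, with the first name letter as a block. A fit with a mean per letter and treatment gave the responses within letters and their difference. The SE is the log2 fold change divided by the square root of F. Each edgeR fit was run on simulated counts with planted changes, but only the pooled test had to meet a set mark. The simulated columns shared 1 mean per gene apart from the planted changes, with the same dispersion for all genes. They held no other letter difference and no library of high mitochondrial share, so they do not show how the fits behave on such libraries. DESeq2 1.42.0, RLE scaling, no filter, no block, no mitochondrial genes and each column left out were alternatives. All members are named, with the 3 wider-list genes of smallest p per comparison. Members and lists were chosen with earlier results of these data known. NFE2L2, KEAP1, NR4A1, NR4A2, and CUL3 as a gene without overlap, were singled out after their values were seen.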

Additional observations from a re-analysis of the deposited data

How the results depend on the processing

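No paired analysis was possible because the columns carry no replicate number that the labels give. Under 14 alternatives the pooled serotonin comparison kept 0 called genes, except that 43 were called with no filter on low counts (32 higher and 11 lower). Within the A columns the count was 0 throughout. Within the B columns edgeR's 2 calls became 1830 with no filter and 1615 with DESeq2, and ran from 0 to 4807 as single columns were left out. The highest value came without Control B2, and 1067 were called without Serotonin B1. Without Control B1 and Serotonin B2, an alternative chosen after seeing the data, 12 were called. The difference between letters went from 0 calls to 570 with no filter and 76 with DESeq2, and from 0 to 3406 over left-out columns, the highest again without Control B2. The cause was not tested. SRXN1 within the B columns was the only member past the threshold in any alternative, at -2.16 with no filter (adjusted p 0.016, against 0.016 to 0.61 over its alternatives).

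Of 32 member results, 17 kept their direction in every alternative run, among them GCLM in all 4 comparisons. GCLM for serotonin against no ligand ran from -0.55 to -0.36 over left-out columns. These turned round as single columns were left out, as log2 ranges. In the pooled comparison they were FTH1 (-0.24 to 0.09) and FTL (-0.19 to 0.23). Within the A columns they were GCLC (-0.22 to 0.06), SRXN1 (-0.12 to 0.66), TXNRD1 (-0.19 to 0.17), FTH1 (-0.34 to 0.06) and FTL (-0.38 to 0.05). Within the B columns they were HMOX1 (-0.33 to 0.14), NQO1 (-0.86 to 1.07), FTH1 (-0.46 to 0.43) and FTL (-0.29 to 0.85). For the difference they were HMOX1 (-0.12 to 0.37), NQO1 (-1.22 to 0.69), FTH1 (-0.36 to 0.56) and FTL (-0.16 to 1.00). With no filter, FTL pooled was -0.01 and TXNRD1 within A -0.03, and with DESeq2 the NQO1 difference was 0.04. Without Control B1 and Serotonin B2, FTL was -0.17 pooled, -0.27 within B and -0.14 for the difference. NQO1 within B was then -1.01, and the differences of HMOX1 and FTH1 were -0.24 and -0.19. Where a letter had 1 column of a treatment left, that column was assumed to vary like the others. Depth limits NQO1, SRXN1 and OSGIN1, which had at most 23, 55 and 12 counts in a column.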

Other observations

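The columns are not placed in a cell line, so the values by name letter are given without a test. NQO1 was the only member whose A columns all lay above its B columns, and no member had them all below. Over all tested genes 10.1% showed the first pattern and 7.86% the second, so 1 of the 8 tested members is near the background. It had 2.60 CPM in Serotonin A1, 3.35 in Serotonin A2, 2.45 in Control A1 and 2.16 in Control A2. It had 0.489 CPM in Serotonin B1, 1.85 in Serotonin B2, 0.583 in Control B1 and 0.987 in Control B2. The B values rested on 4, 11, 1 and 9 counts. HTR1E separated the same columns, with 220.4, 226, 175 and 181 CPM in the A columns and 0.244, 0.503, 0 and 0 CPM in the B columns, each set in the order just given.

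For the other 8 members the letters overlapped. FTH1 had a median of 278 CPM (220.0 to 291) in the A columns and 171 CPM (128 to 236) in the B columns. FTL had a median of 241 CPM (186 to 249.6) in the A columns and 286 CPM (159.8 to 351) in the B columns. The medians of HMOX1 were 13.5 CPM and 13.4 CPM, and those of GCLC 36.4 CPM and 36.2 CPM, for A and B.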
